A study of Danio rerio with 25 samples.

Results

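The transcripts described here are 100 transcripts whose mean level in zebrafish embryos was higher than in controls at the lowest and the highest of 4 citalopram concentrations and close to control at both concentrations between. They were chosen by measured values from 32963 transcripts listed at any concentration. For each concentration the value L was taken, the log2 of the treated group mean over the control group mean, so that an L of 1 is a 2-fold higher mean. Of 30242 transcripts listed at all 4 concentrations, 22957 had both means at 50 normalized counts or more throughout. An absolute L under 0.2 at 0.9 and 50 μg/L was found for 15219 of these, and 853 of the 15219 had an L of at least 0.2 at 250 μg/L. The 100 with the highest value of the smaller L, at 0.03 or 250 μg/L, are the members. The group means at all 4 concentrations chose them, so their L values are a description and were not tested.

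Total RNA of whole wild-type zebrafish embryos was sequenced at 48 hpf in 25 libraries, each from 50 pooled embryos. There were 5 libraries from untreated controls kept in 0.3x Danieau solution and 5 from each group exposed to citalopram hydrobromide from shortly after fertilization until 24 hpf, at 0.03 or 0.9 μg/L, or at 50 or 250 μg/L, when the drug was washed out. Every value is the authors' mean normalized count of a group. The spread between replicates was not analysed here, and no difference below is set against it. The control libraries are common to all 4 comparisons. This alone pushes L towards the same sign at different concentrations, so a likeness between concentrations is no independent evidence. The 4 tables list between 31103 and 31882 transcripts, and their group means sum to between 27493493 and 29297114 normalized counts. In a whole-embryo sample, more cells of a type and more RNA per cell cannot be told apart.

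Citalopram is a selective serotonin reuptake inhibitor, which blocks the transporter that clears serotonin from outside the cell. Serotonin is best known as a transmitter of the nervous system and also acts as a signal in early embryos, before neurons form. A response that is seen at low and at high dose, with little between, is a form of non-monotonic response. Toxicology treats non-monotonic responses apart from those that grow with dose. A gene commonly gives rise to several transcripts, and a quantification by transcript divides reads among those that share sequence. A higher value for a transcript can thus come from more RNA of its gene or from another division of the reads, and these cannot be told apart here. Of the 32963 transcript IDs, 0 were paired with a gene name in the tables used here. The 100 members are therefore described by level, size of difference and identifier, with the IDs of the first 2 in rank order. Markers of tissues and cell types could not be looked up for the same reason.

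The first transcript in rank order was ENSDART00000191740.1. In the authors' deposited tables it stood at 1131 normalized counts with 0.03 μg/L citalopram and at 302.2 in the controls of that comparison. At 0.9 μg/L its mean was 285.0 with citalopram and 295.8 in control. The means were 338.1 and 301.9 for 50 μg/L. For 250 μg/L the mean was 615.9 with citalopram and 295.5 in control. ENSDART00000191740.1 was thus 3.74-fold higher at 0.03 μg/L (L 1.90) and 2.08-fold higher at 250 μg/L (L 1.06), with an L of -0.05 at 0.9 μg/L and of 0.16 at 50 μg/L.

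The second was ENSDART00000185284.1, a transcript of lower level. It stood at 411.9 normalized counts with 0.03 μg/L citalopram against 72.7 in control, the highest L of any member at that concentration (2.50, a 5.66-fold difference). Its means were 70.9 with citalopram and 71.1 in control at 0.9 μg/L. For 50 μg/L they were 77.2 and 72.6. For 250 μg/L they were 143.8 and 71.0, a 2.03-fold difference (L 1.02). For ENSDART00000185284.1 as for the first transcript, the mean at 250 μg/L lay between that at 0.03 μg/L and those of the remaining 3 groups. These 2 transcripts were the only members with an L of at least 1 at both outer concentrations.

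**Figure D1:**
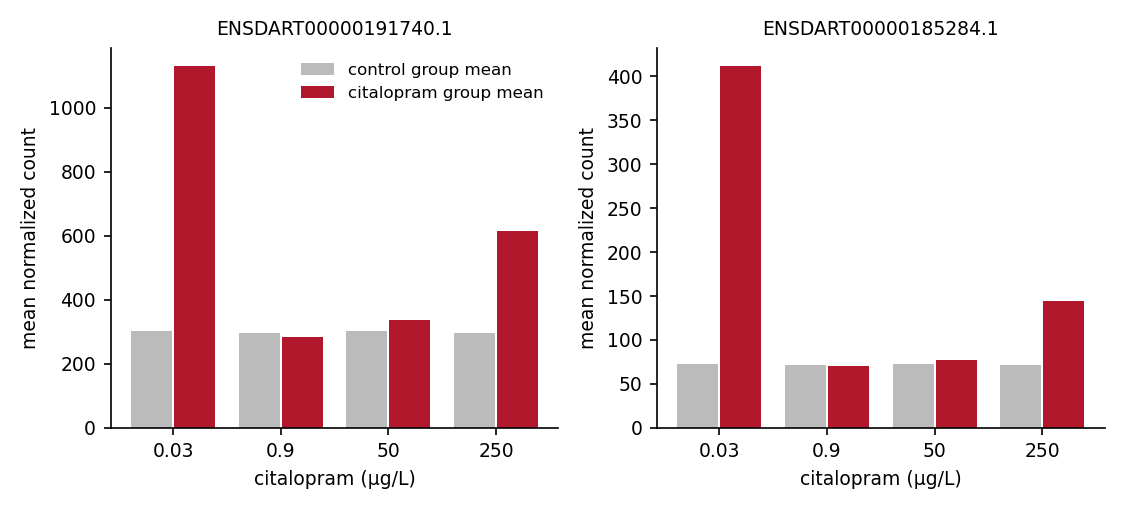
Mean normalized count (vertical axis, from 0) of the first 2 transcripts in rank order at each citalopram concentration (horizontal axis, μg/L); grey bars are control group means and red bars citalopram group means, each a mean of 5 libraries, drawn with no error bars. ENSDART00000191740.1 stood at 1131 with the lowest and 615.9 with the highest concentration, against control means of 302.2 and 295.5.

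At 0.03 μg/L the L of the 100 members ran from 0.40 to 2.50, with a median of 0.96 and quartiles of 0.70 and 1.35. All 100 had an L of at least 0.2, where 26.4% of the 22957 transcripts did, and 48 were at least 2-fold higher, where 1.84% of all transcripts were. An L of at least 2 was reached by 4 members and by 0.179% of all transcripts. These 4 had control means from 55.4 to 266.7 normalized counts. An L of at least 0.6 was found in 83 members, beside 6.21% of all transcripts. Since this comparison chose the members, these shares describe the choice and nothing beyond it.

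At 250 μg/L the differences were smaller. L ran from 0.36 to 1.12, with a median of 0.45 and quartiles of 0.39 and 0.58. An L of at least 0.2 was required by the rule and was found in 11.7% of all transcripts. Of the members, 70 had an L of at least 0.4 (2.81% of all transcripts), 18 of at least 0.6 (1.07% of all) and 3 of at least 1 (0.222% of all). The 18 were the same transcripts that had an L of at least 0.6 at both outer concentrations. At 0.03 μg/L these 18 had L values from 0.93 to 2.50, with a median of 1.54.

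The L at 250 μg/L was below that at 0.03 μg/L in 94 of the 100 members. The median difference, L at 0.03 minus L at 250 μg/L, was 0.51, and it ranged from -0.16 to 1.96. Over all 22957 transcripts this difference had a median of 0.00 and quartiles of -0.16 and 0.18. In the median member the L at 250 μg/L was 48.0% of that at 0.03 μg/L, and in 53 members the L at 0.03 μg/L was at least 2 times that at 250 μg/L. The rule used both L values and ranked by the smaller, so this order and these counts describe the choice. The reverse order was found in 6 members, with L values from 0.43 to 1.12 at 250 μg/L and from 0.42 to 0.96 at 0.03 μg/L. One of the 6 had the highest L of any member at 250 μg/L, where it stood at 559.0 normalized counts against 257.2 in control. Its means were 513.1 and 263.3 in the comparison of 0.03 μg/L.

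The L of all transcripts was also more widely spread at the lower of the outer concentrations. Over the 22957, the SD of L across transcripts was 0.38 with 0.03 μg/L, against 0.20 with 250 μg/L, and the interquartile ranges were 0.40 and 0.20. With 0.9 and 50 μg/L the SDs were 0.16 and 0.21, and the interquartile ranges 0.14 and 0.23. The spread with 250 μg/L was thus no wider than that with 50 μg/L. The percentiles of the members among all transcripts come from the L values that chose them and are given as a description. For 0.03 μg/L their median percentile was 98.0, with a range from 87.0 to 99.9. For 250 μg/L it was 97.8, with a range from 96.5 to 99.9.

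**Figure D2:**
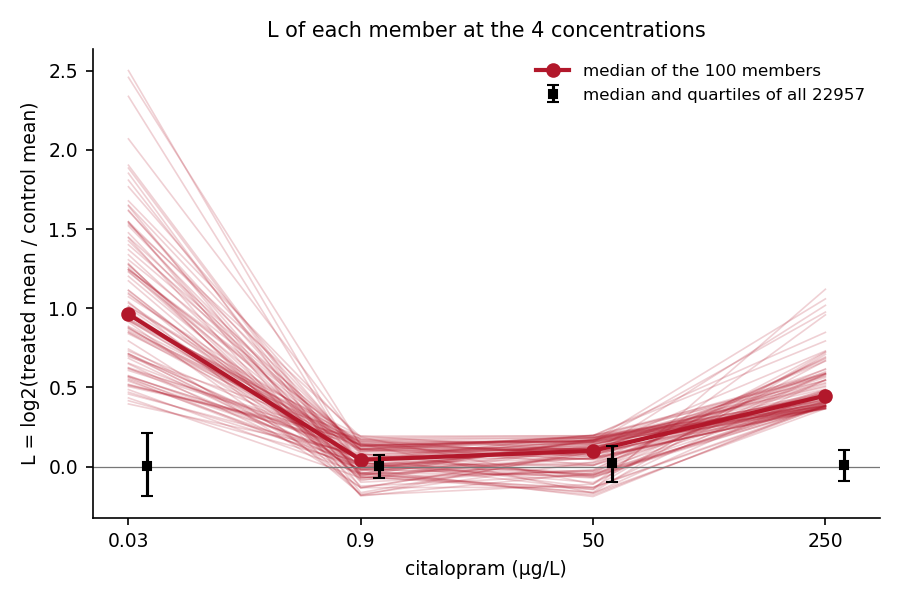
L, the log2 of treated over control mean (vertical axis), at each citalopram concentration (horizontal axis, μg/L, evenly spaced and not to scale); each thin red line is 1 of the 100 members, the thick line their median, and black squares with bars the median and quartiles of all 22957 transcripts. The member medians were 0.96, 0.04, 0.10 and 0.45 in order of concentration, and the low values in the middle follow from the rule.

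At the 2 concentrations between, the rule held every member within 0.2 of control. At 0.9 μg/L the L of the members ran from -0.19 to 0.19 with a median of 0.04, while all 22957 transcripts had a median of 0.00 and quartiles of -0.07 and 0.07. The count of members at an L of 0.2 or more was 0 by the rule, where 6.64% of all transcripts were. At 50 μg/L the members ran from -0.19 to 0.20 with a median of 0.10, and all transcripts had a median of 0.02. The share of all transcripts at an L of 0.2 or more was 14.6% there. Members lay below control in 40 cases with 0.9 μg/L, beside 50.0% of the 15219 transcripts within the limit, and in 27 cases with 50 μg/L, beside 43.3%. An L from 0.15 up to the limit was found in 11 members for 0.9 μg/L (3.75% of the 15219) and in 30 members for 50 μg/L (9.41% of the 15219). An absolute L under 0.1 at both concentrations was found in 23 members, beside 49.5% of all transcripts that met the limit of 0.2. The rule bounded these values and the controls are shared, so nothing is read from these counts.

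The treated groups can also be set against each other. The smaller of the outer L values exceeded the larger of the middle ones by a median of 0.34, and by at least 0.19 in every member. The gap between 0.03 and 0.9 μg/L had a median of 0.94 and ranged from 0.32 to 2.51. Between 0.03 and 50 μg/L the median was 0.88. Between 250 μg/L and the middle concentrations the medians were 0.42 for 0.9 μg/L and 0.39 for 50 μg/L. The shared control means cancel in these gaps, but the rule used the same treated means, so the gaps are a description too.

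The limit in the middle removed most candidates. Without it, 577 transcripts had a smaller outer L at or above that of the last member, 0.364, and 477 of them lay outside the limit at 0.9 or 50 μg/L. Of the 577, 283 had an L of at least 0.2 at 0.9 μg/L (6.64% of all transcripts) and 381 had one at 50 μg/L (14.6% of all). At -0.2 or lower at either were 53. The 577 were picked by high L over control libraries that all comparisons share, so these counts describe the choice. By the rule, the members are the part of these 577 for which the middle means were near control. Within the limit, 609 transcripts had an L of at least 0.2 at both outer concentrations. A further 244 met it at 250 μg/L only, of which 110 were below control at 0.03 μg/L.

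The edge of the group is not marked by a gap. The last 3 members had a smaller L of 0.366, 0.364 and 0.364, and the first 3 transcripts left out had 0.362, 0.362 and 0.362. In each of these 6 the smaller value was that at 250 μg/L, and the L at 0.03 μg/L ran from 0.41 to 1.20.

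**Figure D3:**
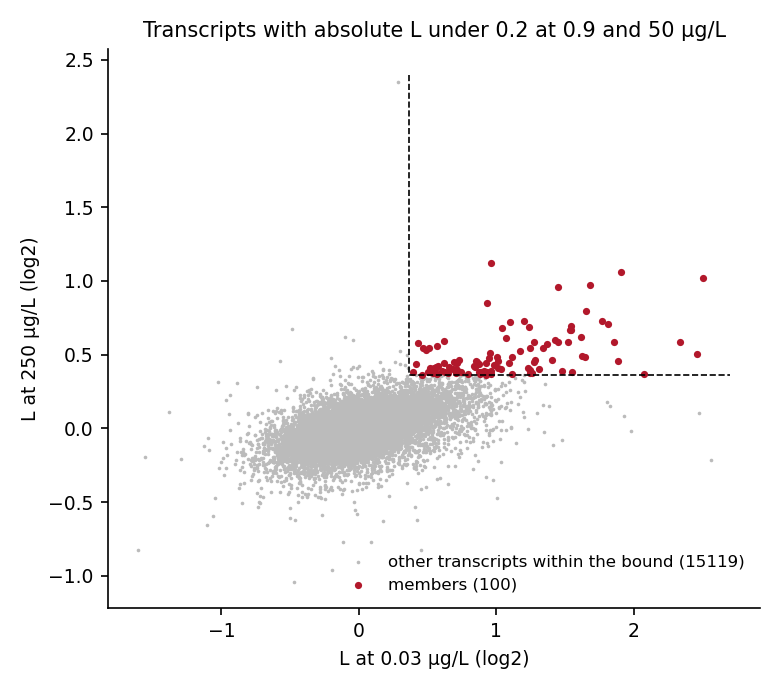
L at 250 μg/L (vertical axis) against L at 0.03 μg/L (horizontal axis), both log2, for the 15219 transcripts with an absolute L under 0.2 at 0.9 and 50 μg/L; red points are the 100 members, grey points the other 15119, and the dashed line is the smaller L of the last member, 0.364. Both axes divide by means of the same control libraries, and the edge of the members at 0.364 is not marked by a gap.

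The members were transcripts of low to moderate level. Their control means, in the 0.03 μg/L comparison, ran from 51.5 to 2248 normalized counts with a median of 139.3 and quartiles of 77.5 and 292.0. The median of all 22957 transcripts was 298.8 and that of the 15219 within the limit 384.6. The median member stood at the percentile 25.2 of control level. A control mean under 100 was found in 33 members, where 14.9% of all transcripts had one. A further 42 members lay from 100 to 300 (35.2% of all transcripts), 20 from 300 to 1000 (31.4% of all) and 5 above 1000 (18.5% of all). Control means enter L and were cut by the floor, so these levels are not independent of the rule and describe the choice. The SD of L over all transcripts also depended on level. It was 0.46 with 0.03 μg/L and 0.28 with 250 μg/L for control means under 100, and 0.30 and 0.14 for those above 1000. The part of this wider spread in the choice of low transcripts was not tested. The members' median L at 250 μg/L was 0.48 under 100, 0.45 from 100 to 300, 0.43 from 300 to 1000 and 0.40 above 1000. By the rule no member lay below 0.364 there, so nothing is read from these medians. At 0.03 μg/L the median L was 0.93 under 100, 0.94 from 100 to 300, 1.24 from 300 to 1000 and 0.96 above 1000. The L at 0.03 μg/L entered the ranking too, and the last class held 5 members. Nothing is read from these medians either.

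**Figure D4:**
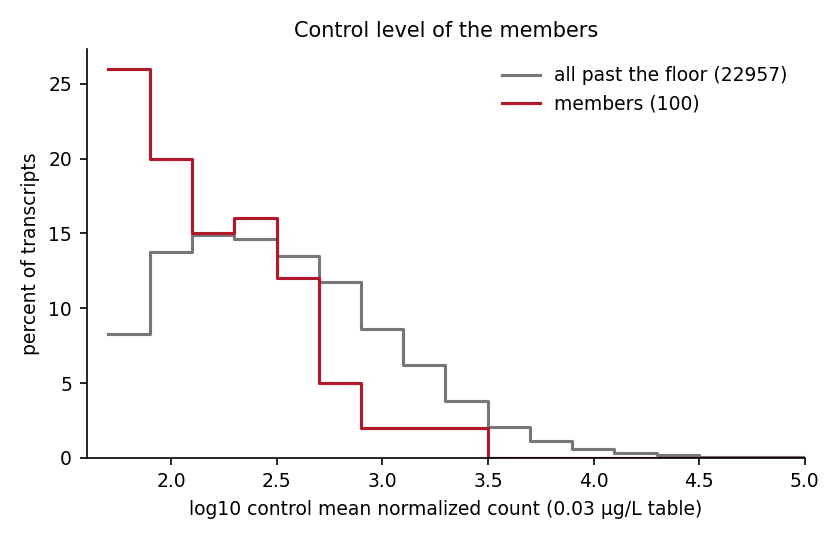
Percent of transcripts (vertical axis) by log10 of the control mean normalized count in the 0.03 μg/L comparison (horizontal axis), in steps of equal width; the red line is the 100 members and the grey line all 22957 transcripts. The members sit to the left, with a median control mean of 139.3 against 298.8. Control means enter L and the floor, so this position describes the choice.

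The most abundant member stood at 7879 normalized counts with 0.03 μg/L citalopram and at 2248 in control, a 3.50-fold difference. At 0.9 μg/L its mean was 2104 against 2201 in control. For 50 μg/L it was 2009 against 2247. For 250 μg/L it was 3595 against 2200, a 1.63-fold difference. This transcript ranked 11 of 100, and it was below control at both middle concentrations. The other 4 members with control means above 1000 were 1.48-fold to 2.04-fold higher at 0.03 μg/L and 1.30-fold to 1.34-fold higher at 250 μg/L.

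Summed over the 100 members, the treated means came to 61600 normalized counts with 0.03 μg/L citalopram against 27709 in control, a ratio of 2.22. At 250 μg/L the sums were 38338 and 27039, a ratio of 1.42. For 0.9 μg/L the ratio was 1.02, and for 50 μg/L 1.05. The 5 most abundant members made up 31.2% of the control sum, and without them the ratios were 2.20, 1.02, 1.05 and 1.43 in order of concentration. The rule bounded the L of every member, so the ratios with and without these 5 describe the choice. The members together took 0.0978% of all normalized counts in the controls of the 0.03 μg/L comparison, 0.210% with 0.03 μg/L citalopram and 0.139% with 250 μg/L.

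The first and the last 20 members in rank order are set side by side here. Their control means overlapped, from 52.0 to 2248 normalized counts for the first 20 and from 59.1 to 1528 for the last 20. The members ranked 1 to 20 had a median control mean of 92.7 normalized counts and median L values of 1.49 with 0.03 μg/L and 0.71 with 250 μg/L. Those ranked 81 to 100 had a median control mean of 201.0, with median L values of 0.77 and 0.37. At 0.9 and 50 μg/L the medians were -0.01 and 0.02 for the first 20 and 0.06 and 0.07 for the last 20. Rank follows the smaller outer L, which divides by control means, and the rule bounded the middle values. All these medians, of level and of L, thus describe the choice, and nothing is read from them. Transcripts of low level also had the wider spread of L, and its part in this order was not tested.

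The rule did not use the identifier, though the identifier is not independent of level, which entered the rule. An Ensembl transcript ID carries a version, which is raised when the transcript's model is revised, and a serial number. Version 1 was found in 33 of the 100 members, beside 13.4% of all 22957 transcripts. Version 5 or higher was found in 11 members, beside 32.6% of all transcripts. The 753 transcripts that met every limit but ranked after 100 lay between, with 23.2% at version 1 and 20.3% at version 5 or higher. These 753 are mixed, since 244 of them had an L under 0.2 at 0.03 μg/L, where the rule set no limit. A serial number of 170000 or more was carried by 40 members, by 31.9% of the 753 and by 19.0% of all transcripts. The shares at version 1 were also taken within classes of control level. With a control mean from 100 to 300, 15 of 42 members and 16.8% of all transcripts had version 1. From 300 to 1000 it was 7 of 20 members and 10.6% of all, and under 100 it was 10 of 33 and 18.7%. Both ENSDART00000191740.1 and ENSDART00000185284.1 are version 1. Several members may belong to 1 gene, which the IDs do not show, so these shares were not tested. Transcripts of large L outside the limit were not examined in this way.

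**Figure D5:**
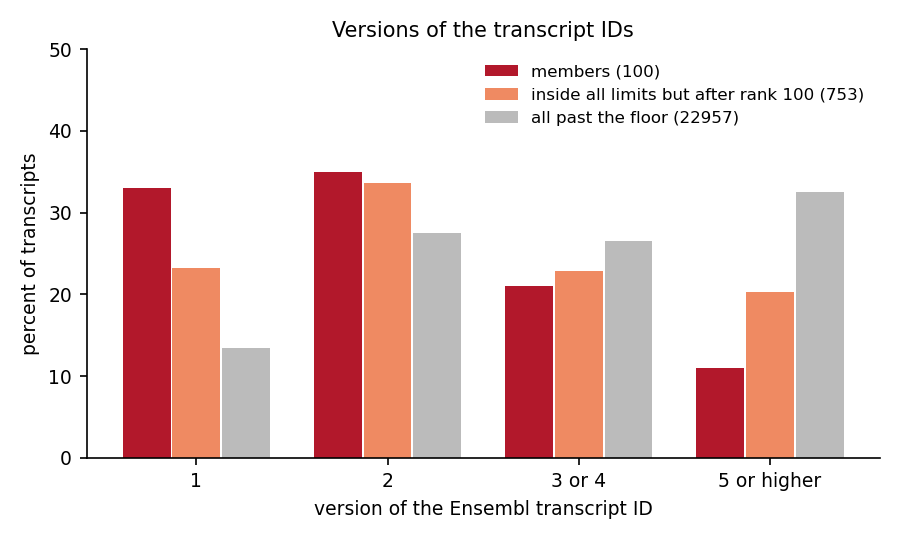
Percent of transcripts (vertical axis, from 0) by version of the Ensembl transcript ID (horizontal axis) for the 100 members, for the 753 transcripts inside every limit but after rank 100, and for all 22957 transcripts. Version 1 was carried by 33 of the 100 members and by 13.4% of all transcripts.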

How the data were processed

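Groups were taken from the treatment labels, which name citalopram; the series' general treatment text names other drugs and was not used. According to the study's methods and the submitters' processing notes, reads were trimmed with Trimmomatic and assigned by Salmon to the coding and non-coding transcripts of Ensembl's GRCz11 annotation. The authors then compared each concentration with control in DESeq2 within Trinity. The deposited group means are normalized counts, estimated counts divided by size factors that were set within each table, and are treated here as a non-negative signal. By which filter transcripts entered a table is not stated in those sources. The tables also hold the authors' fold changes, standard errors, test statistics and p-values, which were not used. Single-library values were not analysed here, so depth per library is unknown. With the authors' standard errors left out, no replicate error was used and no test was run.

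L was computed with no pseudocount. The members and lists were chosen with earlier results of these data known. Gene lists and cell type markers could not be applied, because 0 of 32963 IDs were paired with a name. The transcripts named were to be the first 20 in rank order, the most abundant, those with the highest L, those at the edge and members of the lists; with no gene names, only the first 2 IDs in rank order are printed, and the rest appear as counts, ranges or unnamed values. Alternatives were other scalings, floors, limits and rankings and a pseudocount of 1. Python 3.11.15, numpy 2.4.6, pandas 2.3.3 and matplotlib 3.10.9 were used.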

Additional observations from a re-analysis of the deposited data

How the results depend on the processing

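The make-up of the group depended most on the limit at 0.9 and 50 μg/L and on the floor. With an absolute L under 0.1 at both, 23 of the 100 members were kept, and 202 transcripts in place of 609 had an L of at least 0.2 at both outer concentrations. With a limit of 0.3 these numbers were 53 and 1072. A floor of 100 normalized counts kept 64 members, those that still passed it, and the median control mean of the group so chosen was 230.4 in place of 139.3. A floor of 20 kept 67, with a median control mean of 76.8, so the level of the members follows the floor. Ranking by the mean of both L values kept 69. Centring L on the median of each table kept 94, equal sums of both groups 91 and a pseudocount of 1 kept 98. Under these 3 the medians were taken over the original 100 members and not over groups chosen anew. Their median L lay between 0.91 and 0.96 at 0.03 μg/L and between 0.44 and 0.45 at 250 μg/L. No median changed sign at any concentration. Centring and equal sums shift all L values of a concentration alike, by 0.048 at most, so large changes could not occur. No paired analysis was possible because the columns used are group means and carry no replicate number, and for the same reason no replicate could be left out. At the edge of the group ranks are decided by differences in L in the third decimal, which were not set against replicate error.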
